A study of Mus musculus with 24 samples.

Results

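The 7 genes described here, Isl1, Isl2, Lhx3, Lhx4, Mnx1, Phox2a and Tbx20, encode transcription factors of motor neurons. They are 7 of the 23119 genes listed in the deposited expression table, and each was found by its gene symbol. The set was chosen by the FPKM of Isl1 at day 9, which was among the most reduced of all genes in SmcHD1-mutant relative to WT cells. The day 9 values of the 7 genes are therefore given as a description, with no test. The other stages were not used in that choice and were tested. Those tests took the spread of each gene from all 24 libraries, day 9 included.

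Poly(A) RNA was sequenced from JB4/EI7HZ2 cells, female F1-hybrid mESCs whose parents were of the strains JF1 and B6, and from an SmcHD1-mutant line (KO) derived from them with CRISPR–Cas9 and carries small deletions on both alleles. Each genotype was sampled as mESCs grown in serum with 2i/LIF, as early neurectoderm after 7 or 9 days of differentiation in aggregates, and as NSCs derived from the mESCs and kept with FGF2 and EGF. There were 3 libraries per stage and genotype, 24 in 8 groups. G418 and zeocin, which keep both X chromosomes, are listed for the mESC and NSC media, and not for the day 7 and day 9 differentiation. Each genotype was 1 line, so the mutation cannot be told apart from other differences of the 2 lines. The libraries of a group are described with the study as independent biological experiments, so p-values measure the spread between repeat experiments on the same line.

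Motor neurons of the hindbrain arise in ventral progenitors that express homeodomain factors of the Nkx2 and Nkx6 families, and as they leave the cell cycle they switch on LIM-homeodomain factors. Isl1 is present in nearly all motor neurons, and Isl2, its close relative, follows it. Lhx3 and Lhx4 act with Isl1 and the adaptor Ldb1 in somatic motor neurons, and Lhx3 alone with Ldb1 in V2 interneurons. Mnx1 (Hb9) marks somatic motor neurons and is also known from notochord and endoderm, whereas Phox2a and Tbx20 belong to the cranial visceral and branchial branch.

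In the mm9 coordinates of the table, Isl1 lies on the minus strand of chromosome 13, from 117088478 to 117099896, with 6 exons in the longest GENCODE M1 model. Isl2 lies on the plus strand of chromosome 9 (55388956 to 55393985, 6 exons), and Tbx20 on the minus strand of the same chromosome (24525256 to 24578747, 8 exons). Lhx3 is on chromosome 2 (26055732 to 26062076, minus strand), Lhx4 on chromosome 1 (157548824 to 157589157, minus strand) and Mnx1 on chromosome 5 (29800363 to 29805010, minus strand, 3 exons). Phox2a is on the plus strand of chromosome 7, and its table entry (108966827 to 108986740) spans the convergent gene Inppl1, with which it shares exon bases. Whether reads were counted by strand is not given in the sources used here, so Phox2a and Inppl1 reads in the shared bases may not have been told apart. Inppl1 was at 42.3, 47.5 and 46.9 FPKM in WT NSCs, where Phox2a was at 0, 0 and 0.126 FPKM. FPKM, as estimated by the authors, counts fragments relative to transcript length in kilobases and to the depth of the library.

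The promoters of Isl1, Isl2 and Mnx1 are shown because the values of these 3 genes are described most closely here: Isl1 for the choice of the set, Mnx1 at day 7 and Isl2 in NSCs. Each sequence runs from 250 bases before to 50 bases after the RefSeq start (GRCm38.p6) and had 1 exact match in mm9, at chr13:117099847-117100146 for Isl1 (minus strand), chr9:55388706-55389005 for Isl2 (plus strand) and chr5:29804961-29805260 for Mnx1 (minus strand). Capitals mark CCAAT, on either strand.
Isl1: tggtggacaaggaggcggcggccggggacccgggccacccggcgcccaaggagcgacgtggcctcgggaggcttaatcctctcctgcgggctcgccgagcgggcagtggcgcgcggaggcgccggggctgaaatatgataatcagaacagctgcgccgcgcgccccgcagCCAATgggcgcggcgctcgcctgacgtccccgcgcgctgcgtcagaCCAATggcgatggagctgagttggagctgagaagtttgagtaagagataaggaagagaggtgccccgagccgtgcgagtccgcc
Isl2: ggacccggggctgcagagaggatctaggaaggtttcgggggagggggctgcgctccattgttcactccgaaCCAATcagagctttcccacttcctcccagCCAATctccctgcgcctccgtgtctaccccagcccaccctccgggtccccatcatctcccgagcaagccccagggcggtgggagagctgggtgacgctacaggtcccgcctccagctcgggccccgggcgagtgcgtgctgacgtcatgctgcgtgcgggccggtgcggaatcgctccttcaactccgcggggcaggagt
Mnx1: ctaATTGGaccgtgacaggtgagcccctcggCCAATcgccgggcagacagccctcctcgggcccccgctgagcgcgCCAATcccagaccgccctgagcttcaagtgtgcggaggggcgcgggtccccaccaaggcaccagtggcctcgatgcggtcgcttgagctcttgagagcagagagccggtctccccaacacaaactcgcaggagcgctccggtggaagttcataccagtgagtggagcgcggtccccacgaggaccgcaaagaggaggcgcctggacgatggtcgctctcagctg
The 3 sequences held 37, 23 and 26 CG dinucleotides, against a median of 7 over 32851 mouse promoters of the same length. CCAAT occurred 2 times in the Isl1 and Isl2 windows and 3 times in the Mnx1 window, and 37.4% of all promoters held it on at least 1 strand. Phox2a also held 2 matches, and the windows of Lhx3, Lhx4 and Tbx20 held none. The homeodomain core TAATTA, present in 5.29% of all promoters on either strand, was in none of the windows of the 7 genes, and neither was the E-box CATATG (3.91%). A further E-box, CAGATG, was found in 1 window only, at 1 of the 2 listed starts of Lhx3 (17.2% of all promoters).

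The targeted gene followed the labels in each library. Smchd1 was at 13.0 to 13.9 FPKM in WT mESCs and 1.82 to 2.97 in KO mESCs. Day 9 cells held 21.8 to 22.3 FPKM in WT and 3.80 to 4.40 in KO. Its log2 difference (KO minus WT, log2(FPKM + 1)) was -2.41 at day 7 and -1.96 in NSCs, with limma adjusted p = 8.96e-11 and 2.82e-09. The stages also carried their own markers: Pou5f1 was at 1240 to 1532 FPKM in mESCs and at most 0.931 in NSCs, and Sox1 was at 0.169 to 0.443 FPKM in mESCs against 33.1 to 70.3 at day 7. The read number of the shallowest library was 0.811 and that of the deepest 1.15 relative to the median library. Library totals are not known.

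The level of each factor is best read against what 1 read was worth. In the median library 1 read equalled 0.0822 FPKM for Isl1, 0.116 for Isl2 and Lhx4, 0.0952 for Lhx3, 0.152 for Mnx1, 0.136 for Phox2a and 0.0306 for Tbx20. The WT day 9 libraries held 296 to 459 reads of Isl1, 229 to 417 of Tbx20 and 178 to 295 of Phox2a. They held 52 to 83 reads of Lhx4, 27 to 44 of Lhx3, 9 to 21 of Isl2 and 7 to 18 of Mnx1. Outside day 9 the libraries held 0 to 9 reads of Isl1 and 0 to 20 of Tbx20, so that these values rest on few reads.

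In WT cells the factors came up mostly between day 7 and day 9. WT mESCs held Isl1 at 0.083, 0 and 0.274 FPKM and WT day 7 cells at 0.302, 0.785 and 0.644 FPKM. In WT day 9 cells it was at 21.8, 34.6 and 31.5 FPKM, and it was 0 in all 3 WT NSC libraries. The day 9 mean was 50.8 times the day 7 mean. Tbx20 was at 6.29, 11.7 and 11.1 FPKM at day 9, 35.1 times its day 7 mean, and Lhx4 was at 5.40, 8.83 and 7.15. Lhx3, at 2.31, 3.58 and 3.92 FPKM at day 9, had been seen in WT day 7 cells as 1 read in 1 of the 3 libraries.

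Phox2a and Mnx1 were above their mESC level already at day 7. WT day 7 libraries held Phox2a at 4.61, 3.60 and 2.74 FPKM against 0.682, 0.146 and 0.302 in WT mESCs, and no library of one stage overlapped the other. Mnx1 was at 1.54, 8.41 and 5.12 FPKM at day 7 against 0.765, 0 and 0.508. Both rose in the limma fit, by 1.76 (SE 0.23, adjusted p = 9.66e-07) for Phox2a and 1.93 (SE 0.34, adjusted p = 4.30e-05) for Mnx1 on the log2(FPKM + 1) scale, which understates changes of low genes. Mnx1 met the minimum for testing, a mean of 1 FPKM, only through WT day 7 itself (a mean of 0.467 FPKM without it), and its adjusted p without a minimum was 7.64e-05. In this comparison 59.2% of all tested genes were called. Isl1 (0.49, SE 0.25, adjusted p = 0.0924) and Tbx20 (-0.17, adjusted p = 0.531) did not pass. With only the libraries of the groups compared in the limma fit, Isl1 passed (SE 0.16, adjusted p = 0.0312). Mnx1 was the 1 factor whose WT mean was lower at day 9 (0.956, 2.52 and 1.85 FPKM) than at day 7, by a factor of 0.354, with overlapping libraries.

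A mean of at least 1 FPKM over the 24 libraries was required for a test, and Isl1, Mnx1, Phox2a and Tbx20 met it. Without the WT day 9 libraries 1 of the 7 would have met it, so which factors were tested was set largely by WT day 9. Isl2, Lhx3 and Lhx4 stayed below, and their statistics come from a fit of all genes without that minimum.

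**Figure D1:**
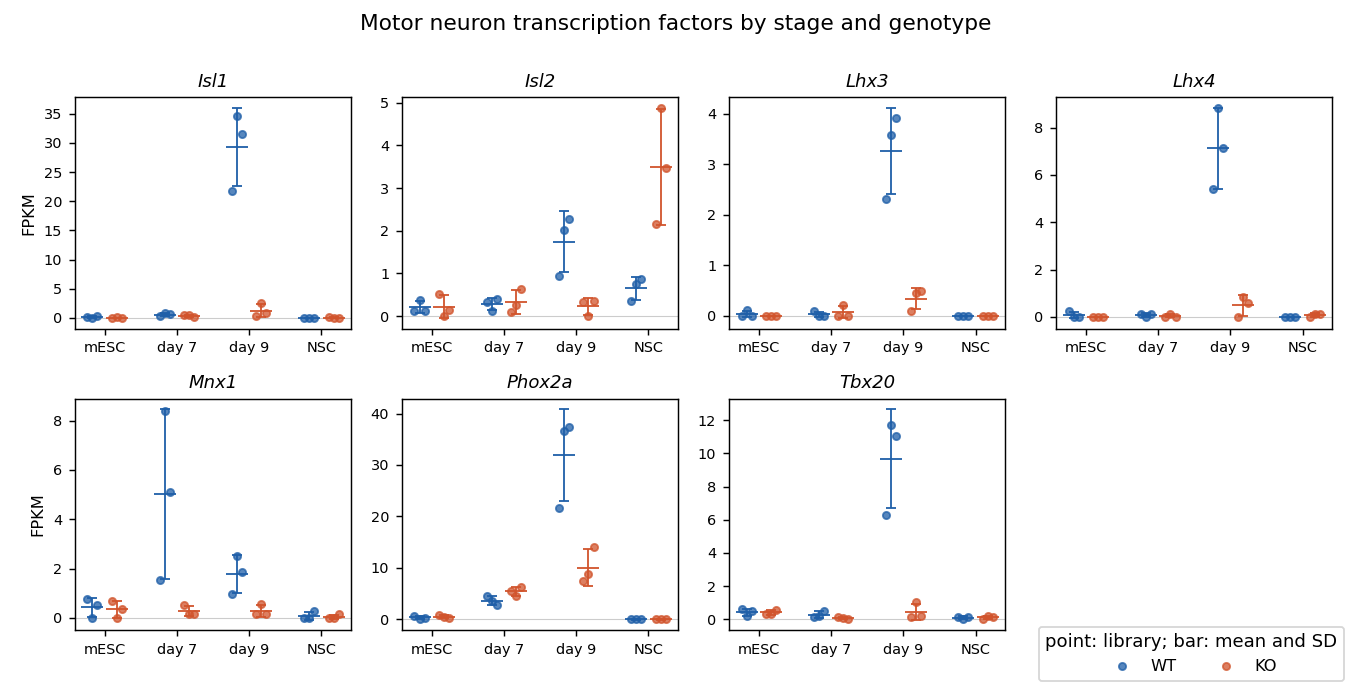
FPKM of each of the 7 factors by stage in WT (blue) and KO (orange); points are the 3 libraries of a group, the horizontal mark is the mean and the error bar the SD. The WT day 9 group stands above the others for Isl1, Lhx3, Lhx4, Phox2a and Tbx20, Mnx1 is highest in WT day 7 (1.54 to 8.41 FPKM) and Isl2 in KO NSCs (2.16 to 4.88 FPKM).

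At day 9, the stage that the choice of genes used, each of the 7 factors was lower in KO than in WT cells. Isl1 was at 0.309, 2.57 and 0.920 FPKM in KO day 9 cells, 4.32% of its WT mean (log2 difference -3.84), and 1 other gene in the table had a lower difference. Tbx20 was at 0.146, 1.02 and 0.218 FPKM, or 4.75% of WT (-2.88). Lhx4, at 0, 0.852 and 0.589 FPKM, kept 6.74% (-2.48). The 3 factors thus stood near or under 1 FPKM in most KO day 9 libraries, while their WT libraries lay between 5.40 and 34.6 FPKM.

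Lhx3 was at 0.0895, 0.438 and 0.484 FPKM in KO day 9 cells, 10.3% of WT (-1.67), and Isl2 at 0.327, 0 and 0.353 against 0.935, 2.02 and 2.27 (13.0%, -1.14). Mnx1 was at 0.143, 0.560 and 0.155 FPKM (16.1%, -1.08). Phox2a kept the largest share, with 7.40, 8.74 and 14.1 FPKM in KO against 21.7, 36.6 and 37.4 in WT (31.6%, -1.58). All WT libraries lay above all KO libraries for 7 of 7 factors, and 13.9% of the 18156 genes with a value had that order. In the limma fit 6.68% of all tested genes were called at day 9, and nothing is read from either share, since this contrast chose the genes. Fewer motor neurons and less RNA of these genes per cell cannot be told apart in bulk RNA.

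The day 9 libraries of 1 genotype also differed among themselves in a shared way. Replicate 1 was the lowest of the WT libraries for 7 of 7 factors. Among the KO libraries replicate 1 was the lowest for 6 of 7, and the highest was replicate 2 for 4 factors and replicate 3 for 3. KO replicate 2 held 34 Isl1 reads, against 4 and 11 in the other 2 libraries.

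In KO cells Phox2a came up by day 7 as in WT cells. It rose in KO cells from 0.922, 0.438 and 0.335 FPKM in mESCs to 5.54, 4.58 and 6.34 at day 7, by 2.06 on the log2 scale (SE 0.23, limma adjusted p = 8.02e-08). It was the 1 factor of the 4 tested that passed, where 61.3% of all tested genes did. From day 7 to day 9 its mean went up 1.84 times in KO and 8.75 times in WT cells. Isl1 went up 3.32 times in KO cells, with overlapping libraries, and Mnx1 stayed at 0.998 of its day 7 mean. Mnx1 did not pass in KO day 7 cells against KO mESCs (-0.05, adjusted p = 0.902), nor did Isl1 (0.42, adjusted p = 0.149) or Tbx20 (-0.39, adjusted p = 0.127). With only the libraries of the groups compared in the limma fit, Isl1 (adjusted p = 0.0147) and Tbx20 (adjusted p = 0.0164) passed.

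At day 7 Mnx1 differed between the genotypes. KO day 7 libraries held Mnx1 at 0.529, 0.166 and 0.165 FPKM against 1.54, 8.41 and 5.12 in WT, that is 1 to 4 reads against 11 to 52. No KO library reached the lowest WT library, and the WT libraries spread widely, with a mean of 5.02 ± 3.43 FPKM (SD, n = 3). Mnx1 fell by 2.05 on the log2 scale (SE 0.34, limma adjusted p = 0.000572), while 3.68% of all tested genes were called in this comparison. Mnx1 met the minimum for testing through the WT libraries: its mean over all libraries was 1.04 FPKM, and it was 0.467 without WT day 7, itself an arm of this comparison, and 0.931 without WT day 9. In the fit without a minimum the adjusted p was 0.00079. The replicate number as a block ended the call (adjusted p = 0.0892), although same-numbered day 7 libraries shared only a number, and the other alternatives kept it (adjusted p = 4.07e-06 to 0.0496, the highest with only the day 7 libraries fitted). The KO effect on Mnx1 also differed from that in mESCs, where both genotypes had low values (0.765, 0 and 0.508 against 0.689, 0 and 0.376 FPKM): the difference of the effects was -1.98 (SE 0.47, adjusted p = 0.0323), and 1.68% of all tested genes passed. That call was lost in 11 of 17 alternatives, among them leaving out replicate 2 or 3 of WT mESCs or of either day 7 group, or replicate 1 or 3 of KO mESCs.

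No other factor passed the test at day 7. Phox2a was at 5.54, 4.58 and 6.34 FPKM in KO and 4.61, 3.60 and 2.74 in WT cells, with overlapping libraries at 4.58 and 4.61, a difference of 0.49 (SE 0.23, adjusted p = 0.334). The differences of Isl1 (-0.19, SE 0.25, adjusted p = 0.835) and Tbx20 (-0.24, SE 0.22, adjusted p = 0.733) did not pass either. In the fit without a minimum Isl2, Lhx3 and Lhx4 differed by 0.04, 0.05 and -0.05, with an adjusted p of at least 0.995. Their day 7 libraries held 0 to 5 reads in both genotypes.

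**Figure D2:**
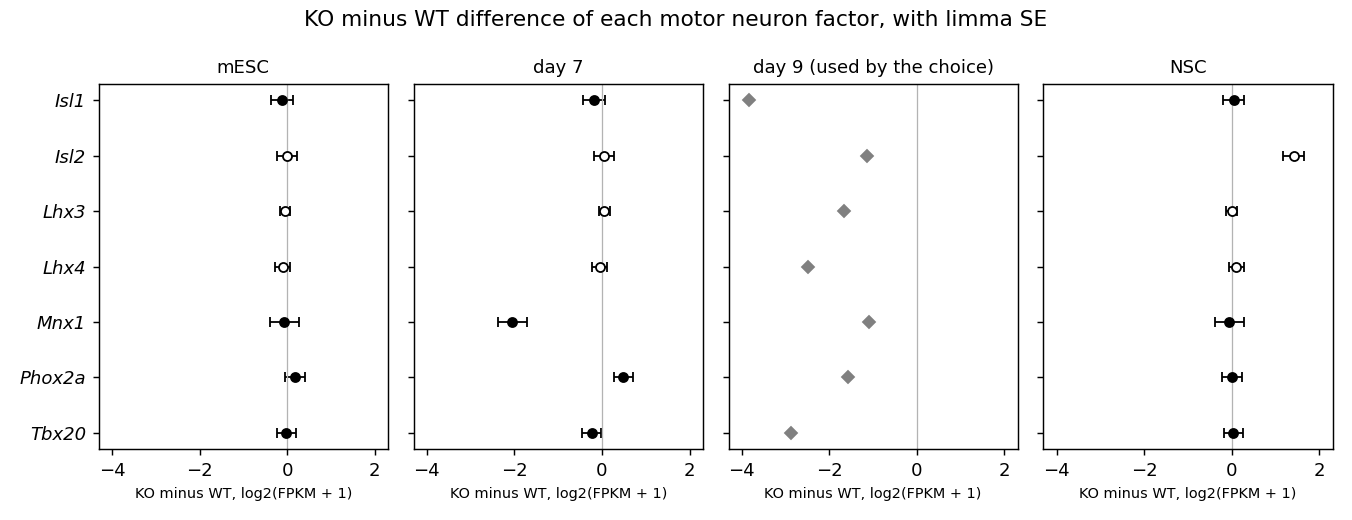
KO minus WT difference of each factor in log2(FPKM + 1) at the 4 stages. Filled circles come from the limma fit and open circles from the fit without a minimum, both with SE; day 9 is drawn as diamonds with no error because that stage chose the genes. Mnx1 stands apart at day 7 (-2.05), Isl2 in NSCs (1.41), and the 7 factors lie between -3.84 and -1.08 at day 9.

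In mESCs no factor passed the test between the genotypes. The limma fit called 0 of 4 factors between KO and WT mESCs, with 0 at an unadjusted p under 0.05, and 0.529% of all tested genes were called. The differences lay between -0.11 for Isl1 and 0.19 for Phox2a. Lhx3 and Lhx4 were at 0 in all KO mESC libraries and at up to 2 reads in WT.

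In NSCs 6 of the 7 factors were at or near 0 in both genotypes, and Isl2 was the exception. WT NSCs held 0 FPKM of Isl1, Lhx3 and Lhx4 in all 3 libraries, and KO NSCs held 0 FPKM of Lhx3. Tbx20 reached at most 0.210 FPKM and Mnx1 at most 0.282. The limma fit called 0 of the 4 tested factors between KO and WT NSCs (0 at an unadjusted p under 0.05), where 6.02% of all tested genes were called, and the difference of the KO effects between NSCs and mESCs was called for 0 of 4 (0 unadjusted, 2.26% of all).

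Isl2 was at 2.16, 4.88 and 3.48 FPKM in KO NSCs and at 0.346, 0.758 and 0.857 in WT NSCs. The KO libraries held 17 to 43 reads and the WT libraries 3 to 8, so that the groups did not overlap, and the KO mean was 5.36 times the WT mean. An exact permutation test of 3 against 3 libraries gave p = 0.1, the smallest it allows (two-sided). Isl2 was under the minimum of the main fit. In the fit of all genes without it, Isl2 was higher by 1.41 on the log2 scale (SE 0.23, limma adjusted p = 0.000752), and also higher than in KO mESCs (1.86, adjusted p = 5.61e-07). The call between the genotypes was lost when only the NSC libraries were fitted (adjusted p = 0.258), with the replicate number as a block, which paired the NSC libraries (adjusted p = 0.294), and with a pseudocount of 0.1 (adjusted p = 0.0539). KO NSCs had the highest mean of Isl2 of all 8 groups (3.5 FPKM), and their range overlapped that of WT day 9 cells, the next in order.

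Against mESCs, 0 of the 4 tested factors were called in WT NSCs (0 at an unadjusted p under 0.05), where 75.2% of all tested genes were. In KO NSCs Phox2a fell by 0.57 (SE 0.23, adjusted p = 0.0282), 1 of 4 where 76% of all tested genes were called. Its 3 KO NSC libraries held 0, 0 and 0.127 FPKM. Leaving out KO mESC replicate 1 or KO NSC replicate 1 or 2 ended that call, with an adjusted p of up to 0.141, and so did scaling the libraries to the same sum (-0.47, adjusted p = 0.0864).

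Some progenitor factors that act upstream of motor neurons were lower in KO cells already at day 7. Of 9 such factors tested at day 7, 3 fell and 0 rose in KO cells (1 fell when only the day 7 libraries were fitted), with a median difference of -1.04 against -0.000524 over all tested genes. The lists of genes were drawn up with earlier results of these data known. Between the genotypes 3.68% of all tested genes were called at day 7, 6.68% at day 9 and 6.02% in NSCs. These shares stand beside the list counts below. Nkx2-9, a homeodomain factor of the most ventral progenitors, was at 9.15, 59.8 and 59.9 FPKM in WT day 7 cells and at 0, 0.789 and 0 in KO, and fell by 4.79 (SE 0.58, limma adjusted p = 3.92e-05). Nkx6-2, which acts in motor neuron progenitors, fell by 3.17 (SE 0.58, adjusted p = 0.00262), from 6.51, 41.6 and 54.4 FPKM to 2.04, 1.83 and 1.83. Olig2, required for somatic motor neurons, fell by 1.39 (adjusted p = 0.0106). WT day 7 replicate 1 was the lowest WT library for Nkx2-9 and Nkx6-2, and so it was for Mnx1.

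Nkx6-1, a further progenitor factor, was at 8.70, 24.4 and 24.8 FPKM in WT day 7 cells and 9.57, 6.40 and 8.21 in KO (-1.05, adjusted p = 0.432). Pax6 was at 16.1, 13.9 and 14.8 FPKM in WT day 7 cells and 17.0 to 28.5 in KO, without overlap (0.57, adjusted p = 0.256), and Irx3 differed by -0.09 (adjusted p = 0.931). At day 9 Nkx6-1 was at 81.3, 116.6 and 112.5 FPKM against 4.73, 27.6 and 6.83, and KO replicate 2 was again the highest. Nkx2-2 was at 20.9, 34.6 and 34.1 FPKM against 0.0972, 8.41 and 0.947. As a description, 5 of the 9 progenitor factors were called lower and 2, Pax6 and Irx3, higher in KO day 9 cells. Of all tested genes, 6.68% were called there. Pax6 and Irx3, which are expressed more dorsally, were at 173% and 222% of their WT means.

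**Figure D3:**
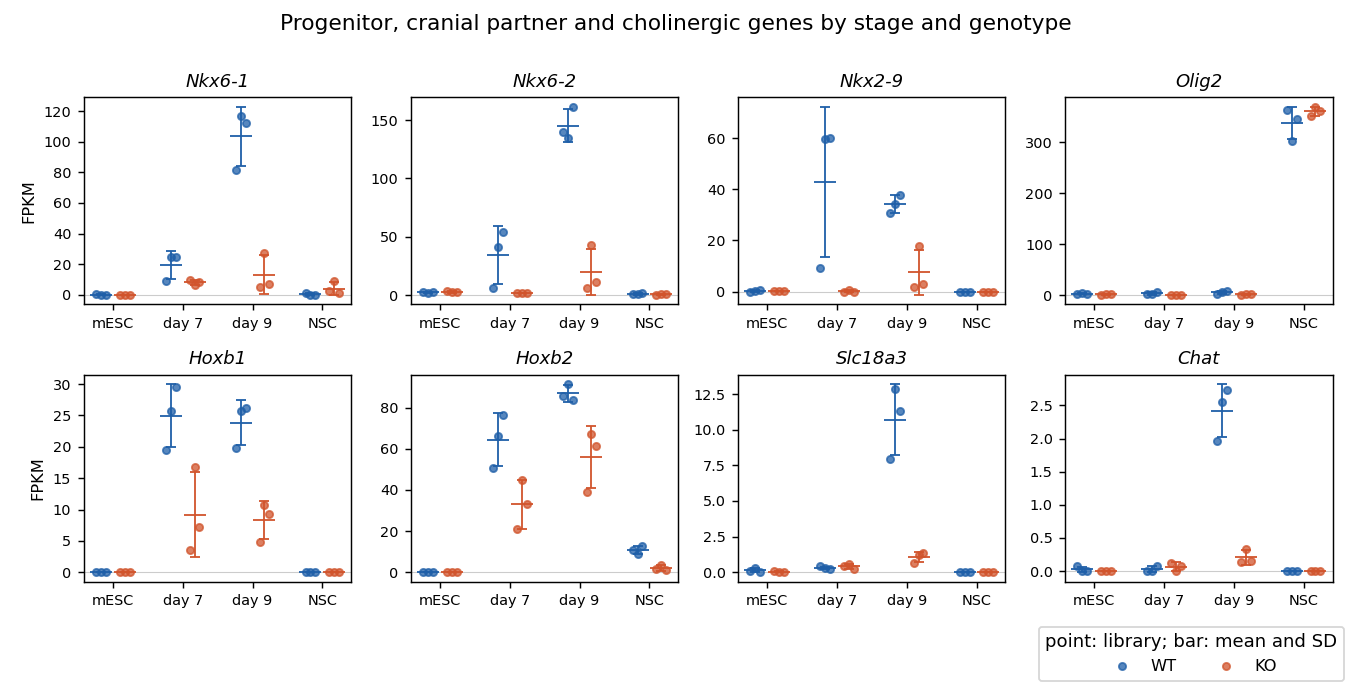
FPKM of 4 progenitor factors, 2 cranial partner genes and 2 cholinergic genes by stage in WT (blue) and KO (orange); points are libraries, the horizontal mark is the mean and the bar the SD of 3 libraries. Nkx2-9 and Nkx6-2 are lower in all KO day 7 libraries, Hoxb1 keeps 34.8% of its WT mean at day 9, and Olig2 is highest in NSCs of both genotypes (303 to 369 FPKM).

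Some partner genes of cranial motor neurons were also lower in KO day 7 cells. Hoxb1, which specifies the segment of the facial motor neurons, was at 19.5, 25.7 and 29.5 FPKM in WT day 7 cells and 3.62, 16.7 and 7.19 in KO, and fell by 1.55 (SE 0.31, limma adjusted p = 0.00359), and no KO library overlapped the WT libraries. Hoxb2 fell by 0.99 (adjusted p = 0.0359) and Ret, a receptor of motor axons, by 1.12 (adjusted p = 0.00104). At day 9 Hoxb1 was at 34.8% of its WT mean, while Isl1 was at 4.32% and Phox2a at 31.6%. In all, 4 of 7 tested partners fell and 0 rose at day 7, where 3.68% of all tested genes were called. This list, too, was drawn up with earlier results of these data known. Hoxa2 did not pass at day 7 (-0.43, adjusted p = 0.486). The count was 2 to 4 when single libraries were left out, with 2 without WT day 7 replicate 2 or KO day 7 replicate 1, 2 with a pseudocount of 0.1 and 1 when only the day 7 libraries were fitted. At day 9 Hoxa2 was at 159% of its WT mean, with all KO libraries above all WT libraries, and did not pass (0.67, adjusted p = 0.118).

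In NSCs 2 of the 7 partners fell, where 6.02% of all tested genes were called. Hoxa2 went from 19.7, 22.0 and 24.5 FPKM in WT to 5.23, 5.70 and 2.54 in KO NSCs (-2.12, adjusted p = 1.01e-05), and Hoxb2 fell by 1.94 (adjusted p = 7.02e-05). With the replicate number as a block neither was called, and with only the NSC libraries 1 was.

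Cholinergic genes, which motor neurons need to make and release acetylcholine, were next compared at day 9. Slc18a3, the vesicular acetylcholine transporter, was at 7.98, 12.8 and 11.3 FPKM in WT day 9 cells and 0.649, 1.19 and 1.32 in KO. Chat, the acetylcholine synthesizing enzyme, was at 1.97, 2.56 and 2.74 FPKM against 0.138, 0.337 and 0.149. Slc5a7, the choline transporter, was low in both, at 0.310, 0.352 and 0.215 against 0.0721, 0.106 and 0.273 FPKM. As a description, 6 of the 10 genes of this list met the minimum and were called lower at day 9. Of these, Slc18a3 and Ache met it only through the WT day 9 libraries (a mean of 0.271 and 0.631 FPKM without them), so the count is no support for the list. In the limma fit 0 of the 6 were called at day 7, where their median was 0.11 and 0 had an unadjusted p under 0.05. The neurofilament genes Nefl and Nefm were among the 6, at 173.9 and 165.4 FPKM on average in WT day 9 cells and 58.6 and 60.7 in KO.

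Some genes of neurons in general were also lower in KO day 9 cells. Of 9 tested, 4 were called lower and 0 higher (2 lower with a pseudocount of 0.1), against 6.68% of all tested genes called. The median of the 9 was -0.66. Their shares of the WT mean lay between 28.2% for Gap43 and 117% for Mtap2, a microtubule protein that did not pass (0.23, adjusted p = 0.459). Tubb3 was at 344.6, 375.3 and 363.3 FPKM in WT day 9 cells and 180.2, 243.7 and 272.1 in KO (-0.66, adjusted p = 0.485), and Stmn2 at 107.9 to 116.9 against 62.8 to 66.8 FPKM (-0.78, adjusted p = 0.00233). Gap43 differed by -1.80 (adjusted p = 8.49e-05). The summed level of the list was 761 to 839 FPKM in WT and 376 to 531 in KO day 9 cells, and at day 7 it was 123 to 163 against 165 to 194. What these levels of neuronal RNA contributed to the lower motor neuron factors was not tested.

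**Figure D4:**
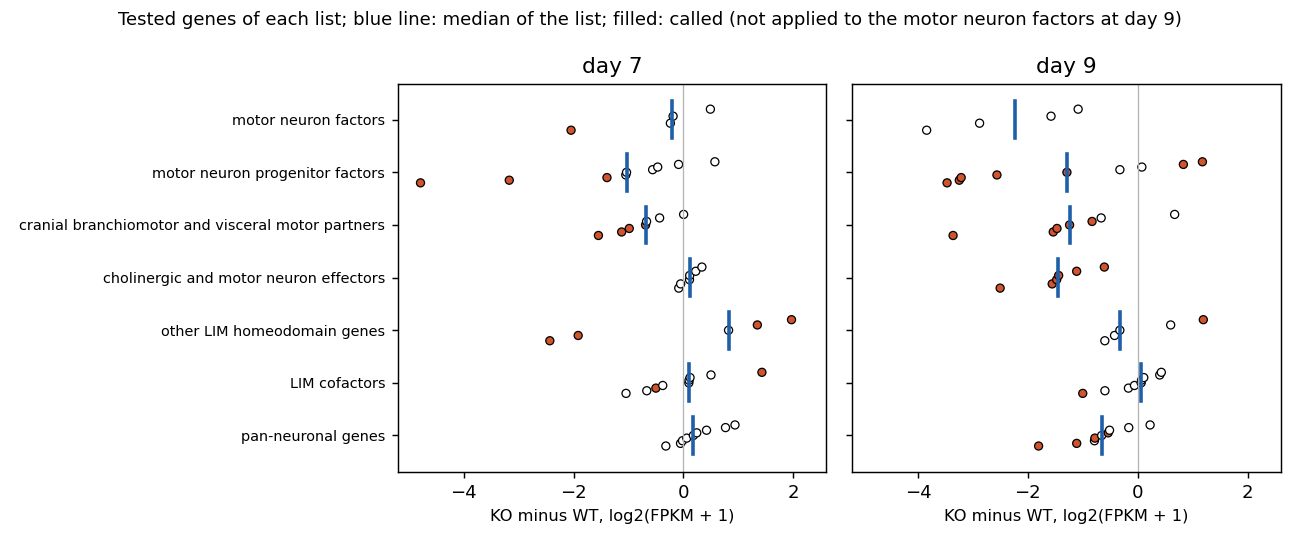
KO minus WT difference in log2(FPKM + 1) of the tested genes of each list at day 7 and day 9; each circle is a gene, filled where it was called, and the blue line is the median of the list. At day 7 the progenitor list has a median of -1.04 and the cholinergic list 0.11, and at day 9 the pan-neuronal list has -0.66.

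Other LIM-homeodomain genes went in both directions. At day 7 2 of 5 tested rose and 2 fell in KO cells: Lhx2, a forebrain and sensory factor, rose by 1.97 (16.7, 11.4 and 9.16 FPKM against 4.54, 1.75 and 1.44; adjusted p = 0.000292) and Lhx5 by 1.35 (adjusted p = 0.00536). Lhx1, expressed in interneurons and in motor neurons of the limbs, fell by 2.43, from 5.23, 8.03 and 4.45 FPKM to 0.260, 0.245 and 0.244 (adjusted p = 1.15e-06), and Lmx1a fell by 1.92 (adjusted p = 0.000265). Lmx1a met the minimum only through the WT day 7 libraries (0.588 FPKM without them), and its adjusted p without a minimum was 0.000358. Ldb1, the adaptor through which Isl1 and Lhx3 act, was at 103 to 113 FPKM in WT and 109 to 116 in KO day 9 cells (0.07, SE 0.09, adjusted p = 0.804). Among 9 cofactors Lmo1 rose at day 7 by 1.43 (adjusted p = 0.000187) and Ssbp4 fell by 0.50 (adjusted p = 0.0358), and 1, Lmo4, was called lower at day 9 (-1.0, adjusted p = 0.0216). The count at day 7 was 1 without WT day 7 replicate 2 or 3 or KO day 7 replicate 2 or 3. At day 9 it was 0 without WT day 9 replicate 2 or 3 or KO day 9 replicate 1 or 3 and with a pseudocount of 0.1, and 2 with libraries scaled to the same sum. In NSCs Lmo1 (-0.89, adjusted p = 0.0130) and Ldb2 (-1.10, adjusted p = 0.00412) fell, neither was called with the replicate block or with only the NSC libraries, and 1 was called without KO NSC replicate 3.

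Several of the 7 factors are also expressed by other cell types, whose genes were measured beside them. V2 interneurons share Lhx3 and Lhx4: the summed level of 7 V2 genes was 24.4 to 29.4 FPKM in WT and 3.90 to 7.73 in KO day 9 cells, and 2 of 2 tested genes (Gata2 and Foxn4) were called lower, of which Foxn4 met the minimum only through WT day 9 (0.419 FPKM without it). Heart progenitors share Isl1 and Tbx20: 9 heart genes summed to 5.50 to 18.3 FPKM in WT and 1.81 to 3.40 in KO day 9 cells, and Nkx2-5 was at 0, 1.99 and 0.405 against 0, 0 and 0.147. Hand2 and Tbx5 were at 0 in 2 and 3 of the 3 WT day 9 libraries. Tnnt2, Gata4, Tbx1 and Mef2c were at 0%, 12.1%, 28.6% and 41.6% of their WT means in KO day 9 cells, without overlap. Hand1 was at 120%, with overlap, and Tbx5 was higher in KO. The median share over the 8 heart genes with a WT day 9 value was 9.97%, against 10.3% for the 7 factors. Of 2 tested heart genes, 1 was called lower at day 9 (Myl7, -1.84, adjusted p = 0.00294). The part of these cell types in the Isl1, Lhx3, Lhx4 and Tbx20 values was not tested.

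Some foregut and endoderm genes were also lower in KO day 7 cells, as Mnx1 was. At day 7 the 7 foregut and pancreas genes summed to 5.0 to 15.8 FPKM in WT and 0.269 to 0.666 in KO cells, and 2 of 4 tested fell: Sox17, at 2.58, 8.44 and 7.96 FPKM against 0.0566, 0.0710 and 0, and Foxa1, at 1.35, 5.02 and 5.23 against 0.0555, 0.0696 and 0.139. Sox17 met the minimum only through the WT day 7 libraries (0.441 FPKM without them), and its adjusted p without a minimum was 2.65e-06. Pdx1 was at 0 in all day 7 libraries. WT replicate 1 was the lowest for both genes and for Mnx1. The part of such cells in the Mnx1 difference was not tested.

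Sensory neurons also contain Isl1. The 8 sensory genes summed to 26.4 to 32.5 FPKM in WT and 19.8 to 26.0 in KO day 9 cells, and of 5 tested 1 was called higher, Tlx3 (0.644, 0.264 and 0.403 FPKM in WT against 4.59, 4.89 and 6.87 in KO), and 2 lower. Tlx3 met the minimum only through the KO day 9 libraries (0.577 FPKM without them). Without WT day 9 replicate 2 or KO day 9 replicate 1, 1 of the 5 was called. Pou4f1, the partner of Isl1 in sensory neurons, was at 1.53, 1.22 and 1.29 FPKM in WT and 1.75, 1.95 and 3.13 in KO day 9 cells (0.46, adjusted p = 0.135), a direction opposite to that of Isl1. The 7 ventral forebrain genes outside the X chromosome summed to 16.5 to 21.4 FPKM against 7.34 to 12.8, and the 1 tested, Ebf1, did not pass (-0.97, adjusted p = 0.192). The part of these cells in the Isl1 values was not tested.

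The genes whose levels were most like those of Isl1 over the 24 libraries were named by Pearson's r of log2(FPKM + 1), as a description in which WT day 9 libraries weigh most. They were Gnat3 (r = 0.990), Slc18a3 (0.984), Rgs4 (0.974), Scg2 (0.965), Slc18a2 (0.964) and Cntn2 (0.956). Gnat3, a G protein subunit of taste cells, was at 6.88, 11.0 and 10.3 FPKM in WT day 9 cells and 0, 1.45 and 0.400 in KO. Rgs4, a regulator of G protein signalling, was at 36.6, 59.1 and 55.8 against 2.49, 7.37 and 3.05 FPKM. The 6 genes had in WT day 9 replicate 1 their lowest WT day 9 library, as Isl1 had.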

How the data were processed

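Stranded poly(A) libraries were made by the authors from total RNA and sequenced as single-end reads. According to the submitters' processing notes, reads were trimmed (Trim Galore 0.6.6), aligned to mm9 (TopHat2 2.1.1) and quantified with Cuffdiff of Cufflinks, and reads of ribosomal RNA and the X chromosome were removed. Deposited by the authors were FPKM of each library, with an estimate status. Read totals, the library normalization and counting by strand are not given in the sources used here. The table held 12 more FPKM columns, of samples outside the 24 libraries, which were not used.

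Groups came from the labels. Of 18156 genes outside X and Y with a value above 0 and no failed estimate, 12105 had a mean of at least 1 FPKM and were tested on log2(FPKM + 1) with limma 3.58.1 (statmod 1.5.0, R 4.3.3): 8 group means, moderated variances with trend and robust settings, two-sided, Benjamini-Hochberg adjustment, with genes called below an adjusted p of 0.05. The fit was tested on simulated data with known changes. Differences of FPKM-based values without read totals carry no counting interval, and the relative read numbers came from the worth of 1 read in low genes.

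The 7 genes and the lists were chosen with earlier results of these data known. Named were the 7 genes, Smchd1, Olig2, Nkx6-1, Chat, Slc18a3 and Slc5a7, the 2 genes of highest mean and the 2 of largest called change in each of 11 lists, and the 6 genes most like Isl1. Other genes (Nkx2-2, Pax6, Irx3, Hoxb1, Ret, Lmx1a, Lmo4, Tlx3, Pou4f1, Nkx2-5, Gata4, Hand1, Hand2, Tbx1, Tbx5, Tnnt2, Pdx1, Inppl1 and stage markers) were chosen after their values were seen. Some genes these rules name are not reported here. Map2 is listed as Mtap2. Replicate numbers paired the genotypes in mESCs (r of deviations 0.29, 0.44 and 0.14) and NSCs (0.34, 0.18 and 0.24), and not at day 7. Alternatives were a pseudocount of 0.1, no minimum, libraries scaled to one sum, only the groups compared, the replicate block on only those groups, and leaving out each library. Promoter sequences are from RefSeq.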

Additional observations from a re-analysis of the deposited data

Results flagged for a closer look

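The KO effect on Mnx1 differed between day 7 and mESCs in the test of the difference itself. The difference of the effects was -1.98 on the log2(FPKM + 1) scale (SE 0.47, limma adjusted p = 0.0323), from 1.54, 8.41 and 5.12 FPKM in WT and 0.529, 0.166 and 0.165 in KO day 7 cells against 0.765, 0 and 0.508 in WT and 0.689, 0 and 0.376 in KO mESCs. The call was lost in 11 of 17 alternatives, 8 of them fits without a single library (replicate 2 or 3 of WT mESCs, WT day 7 or KO day 7, or replicate 1 or 3 of KO mESCs), and its adjusted p ranged from 0.00046 to 0.247. Mnx1 met the minimum for testing through WT day 7, an arm of this contrast (a mean of 0.467 FPKM without it). In the limma fit without a minimum the adjusted p was 0.036. In the main fit 1.68% of all tested genes were called. From the same values, Mnx1 was lower in 3 of 3 KO day 7 libraries than in any WT day 7 library.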

How the results depend on the processing

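Isl1 kept its direction at day 9 in all alternatives run, with a difference of -4.8 at a pseudocount of 0.1 and of -4.23 to -3.51 when single libraries were left out. The counts of factors called changed as follows. With a pseudocount of 0.1, WT NSCs against WT mESCs gave 2, KO day 7 against KO mESCs 3, and the difference of KO effects between day 7 and mESCs 0. Without the minimum, in which Isl2 entered, KO against WT NSCs gave 1, KO NSCs against KO mESCs 2, and the difference of KO effects between NSCs and mESCs 1. With libraries scaled to the same sum, where Isl2 passed the minimum only through the KO NSC libraries in which it was high (a mean of 0.544 FPKM without them), the 1 call in KO NSCs against KO mESCs was Isl2 (adjusted p = 7.60e-08) in place of Phox2a (adjusted p = 0.0864), KO against WT NSCs gave 1 (Isl2, 1.53, adjusted p = 0.000404), the difference of KO effects in NSCs 1 and WT NSCs against WT mESCs 1. That scaling moved the median of all genes by up to 0.43 in comparisons between stages and by at most 0.10 in size between genotypes. With only the groups compared, KO day 7 against KO mESCs gave 3 and the day 7 difference of effects 0. Leaving out single libraries gave 0 to 1 for that difference and 0 to 1 for KO NSCs against KO mESCs. Other changes had no tested cause.

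The replicate block was fitted with only the libraries of the groups compared, so both choices changed together. With the replicate number as a block, KO against WT day 7 gave 0 factors (Mnx1 adjusted p = 0.0892), the day 7 difference of effects 0 and KO day 7 against KO mESCs 3. At day 7 the same-numbered libraries shared only a number (r of deviations 0.10, 0.08 and 0.04). Over all tested genes the block fits called 6 genes between the genotypes in mESCs, 519 at day 7 and 12 in NSCs. The main fit of all 24 libraries called 64, 446 and 729. In NSCs the block fit called none of the list genes, where 8 had been called. What part of these changes came from the block rather than from fitting fewer libraries was not tested. The block also added Isl1 in WT day 7 against WT mESCs (adjusted p = 0.0465), which a pseudocount of 0.1 and only the groups compared added too, and the block changed no call of the tested factors in the comparisons not named here.

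Alternatives chosen after seeing the data concerned Isl2 in NSCs without the minimum: leaving out each NSC library kept the call (1.20 to 1.65, adjusted p = 0.000252 to 0.00647), and only the NSC libraries, the block and a pseudocount of 0.1 ended it. At 1 to 8 reads per library, low factors carry counting error that these fits see only through the spread of 3 libraries.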

Other observations

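Some genes of the lists differed between KO and WT NSCs, a stage in which 6 of the 7 factors were at or near 0. Gap43, a growth cone protein of the pan-neuronal list, fell by 1.11 (limma adjusted p = 0.012), from 162.5, 70.7 and 126.8 FPKM to 71.8, 37.0 and 52.6, with overlapping libraries, and Ache, acetylcholinesterase, fell by 0.74 (adjusted p = 0.0106). Neither was called with the replicate block, which paired the NSC libraries, with only the NSC libraries, or without WT NSC replicate 3 or KO NSC replicate 2. Foxa1 was listed at 0 in 3 of 3 WT NSC libraries and at 0.911, 1.76 and 1.62 FPKM in KO NSCs.

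The progenitor factors Olig1 and Olig2 were far higher in NSCs of both genotypes than at day 9 (Olig1 at 1100 to 1483 FPKM, Olig2 at 303 to 369 FPKM), while Isl1 was at 0 in 5 of 6 NSC libraries. In mESCs, 0 of the 58 tested list genes were called between the genotypes (4 at an unadjusted p under 0.05), where 0.529% of all tested genes were. At day 7, 15 of 58 were called, where 3.68% of all tested genes were, but the lists were drawn up with earlier results of these data known. Of the genes tested, 0 of 5 sensory, 0 of 2 heart, 0 of 2 V2 and 0 of 1 ventral forebrain genes were among the 15. Exceptions were 1 sensory gene without WT day 7 replicate 1, 1 V2 gene without WT day 7 replicate 3 or with the replicate block, and 2 heart genes and 1 ventral forebrain gene in the fit without a minimum. Of the pan-neuronal genes 0 were called, and 2 with the block or with only the day 7 libraries and 1 with a pseudocount of 0.1. The remaining named genes of these lists at day 9 were Neurog1 at 21.1, 14.9 and 12.2 FPKM in WT and 6.13, 11.6 and 7.44 in KO, Eya1 at 5.58, 6.86 and 5.61 against 3.33, 3.77 and 2.90, and Neurod1 at 8.37, 8.88 and 6.70 against 1.64, 3.60 and 3.90.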
